A study of Mus musculus with 44 samples.

Results

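PCP, the pro-chondrogenic progenitors, are a population of skeletal cells sorted from the long bones of the lower limbs of mice at postnatal day 3. Their mRNA is held in 2 input libraries of the 44 libraries of the series, that is, libraries of RNA taken before the enrichment for m6A, and these 2 were chosen by their labels alone. They were compared with the 8 input libraries of the other downstream populations THY, BLSP (B-cell lymphocyte stromal progenitor), 6C3 and HEC (hepatic leukemia factor expressing cell), 2 of each. All 10 libraries are labelled wild type and C57Bl6. The paper uses the name wild type for the controls of its Mettl3 deletion, which carry floxed Mettl3 alleles without Cre. It does not say whether the mice of these 10 libraries carried such alleles. Animals of both sexes were used without distinction. Metaphyses with growth plates were digested once marrow and periosteum had been taken off.

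All 5 populations were sorted as cells without CD45, Ter119 and Tie2 and with the alpha-V integrin (CD51). PCP were then taken as Thy1+ 6C3- CD105+ CD200+ cells, and THY differ from them in the gate only by lacking CD200. BLSP are Thy1+ 6C3- CD105-, 6C3 are Thy1- 6C3+ CD105+, and HEC are Thy1- 6C3+ CD105-. The name of PCP refers to a fate in cartilage. In a growing long bone, chondrocytes lay down type II collagen and aggrecan, enlarge to hypertrophic cells that express type X collagen and Mmp13, and give way to bone that osteoblasts build along invading vessels. The stroma beside these vessels supplies Cxcl12 and Kit ligand to blood cells.

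The PCP libraries held 44046651 and 43243983 counts and were the deepest of the 10, the others holding 19795666 to 42310803. An exact two-sided permutation test over the 45 ways to choose 2 of 10 libraries gave p = 0.0889 for depth. The share of counts from mitochondrial genes averaged 0.852% in PCP and 0.841% in the others (p = 0.911 in the same exact test). The 2 PCP libraries differed from each other by more than most replicates did, with a chi-square per degree of freedom of 115 against 27.0 to 30.2 in THY, BLSP and HEC and 181 in 6C3. Values below are read counts scaled to a common library size (CPM) by the TMM method over these 10 libraries, and they compare a gene between libraries, not genes with each other. With 2 libraries a population, p-values come from edgeR's quasi-likelihood test fitted across 19604 genes, and fold changes are on the log2 scale with their standard error (SE). In bulk RNA, fewer cells of a type and less RNA per cell cannot be told apart.

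The genes of the sort antigens followed the gates with 1 exception. Cd200, at chr16:45382135-45409053 in GRCm38, was at 88.1 and 112 CPM in PCP and at 8.48 and 9.42 in THY, with 46.1 and 50.2 in BLSP, 53.5 and 65 in 6C3 and 61.2 and 69.5 in HEC. Both PCP libraries lay above all 8 others, and the difference from the mean of the 4 populations was 1.48 ± 0.15 (adjusted p = 4.07e-05), although that from HEC alone did not pass (adjusted p = 0.0723). Eng, which encodes CD105, was at 125 and 98.8 CPM in PCP, near its levels in THY and 6C3 and above those in BLSP (18.2 and 26.3) and HEC (33 and 33.1). Thy1 was at 18 and 25.7 CPM in PCP and at 0.0636 to 0.448 in 6C3 and HEC, whereas Enpep, which encodes the 6C3 antigen, was at 4.99 and 3.89 in PCP and at 42.8 to 57.7 in 6C3 and HEC. Itgav, the alpha-V integrin that all gates share, was at 101 and 98.6 CPM in PCP and 64.2 to 119 in the others and did not pass (adjusted p = 0.99). The exception was Tek, the gene of Tie2, against which the cells were sorted. Tek was at 6.26 and 8.63 CPM in PCP, at 6.46 and 6.74 in THY and at 3.91 and 1.56 in BLSP, and had 0 counts in 6C3 and 5 in HEC.

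**Figure D1:**
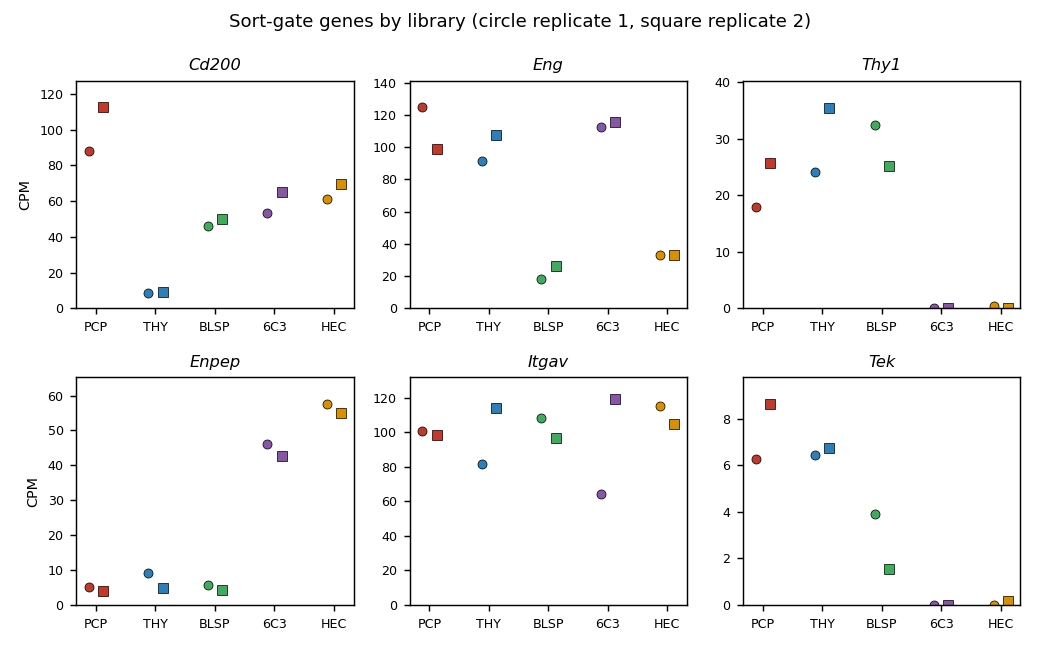
Genes of the sort antigens in the 10 input libraries. Each panel shows CPM on a linear axis for 1 gene, with a circle for replicate 1 and a square for replicate 2 of each population; Cd200 is highest in the 2 PCP libraries (88.1 and 112), and Tek is detected in PCP, THY and BLSP.

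Against the mean of THY, BLSP, 6C3 and HEC, 956 genes were higher in PCP (4.88% of those tested) and 311 were lower (1.59%) at an adjusted p under 0.05, 1267 in all (6.46%). By a looser rule, a log2 fold change beyond 0.5 at an unadjusted p under 0.05, 2127 were higher (10.8%) and 958 lower (4.89%). Among the lists, endothelial genes had the largest median rise (10 of 12 higher), although the filter on low counts could be passed through the 2 PCP libraries alone. Genes of marrow stroma (11 of 15), bone (13 of 18) and hypertrophic cartilage (5 of 10) were also higher. By contrast, 0 genes of cartilage matrix and of the joint were higher and 5 and 6 were lower. Both PCP libraries lay above all 8 others for 882 genes (4.5%) and below them for 393 (2%). When the 8 other libraries were fitted as 1 group, so that differences among the 4 populations entered the error, 36 genes were higher and 1 was lower. In that fit 7 of the 12 endothelial genes described below were higher, as was 1 gene each of the marrow stroma, fat cell and Notch lists, and 0 genes of the bone, hypertrophic, mural, fibroblast, cartilage matrix, joint, Wnt and BMP lists passed. Without PCP replicate 1 the counts were 552 and 122, and without the HEC population they were 437 and 64.

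The number of genes that differed depended on the neighbour. PCP differed from BLSP in 78 higher (0.398%) and 33 lower genes (0.168%), from THY in 351 (1.79%) and 166 (0.847%), from 6C3 in 1058 (5.4%) and 759 (3.87%), and from HEC in 1454 (7.42%) and 1003 (5.12%). The totals were 1817 genes for 6C3 (9.27%) and 2457 for HEC (12.5%). The mean correlation of log2 CPM across genes ran in the same order, at 0.957 with BLSP, 0.948 with THY, 0.933 with 6C3 and 0.926 with HEC, beside 0.959 between the 2 PCP replicates. The genes called in either direction moved with single libraries, from 111 (0.566%) to 27 without BLSP replicate 1 and to 228 without PCP replicate 2 for BLSP, and from 517 (2.64%) to 169 without THY replicate 1 and to 908 without PCP replicate 2 for THY.

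**Figure D2:**
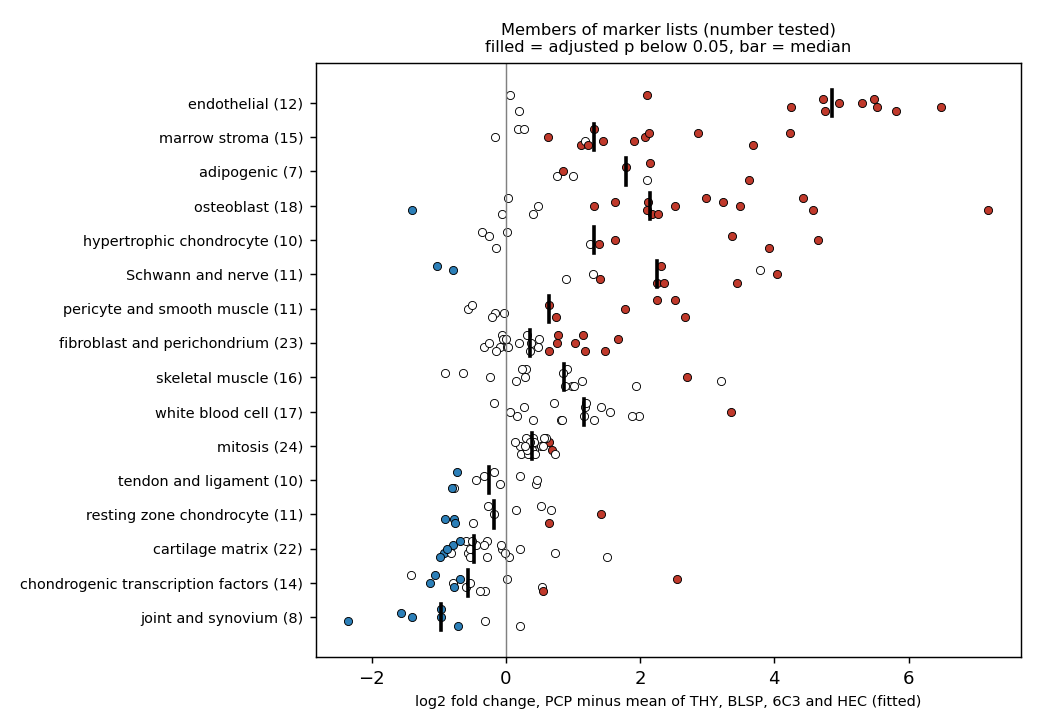
Fitted log2 fold change of PCP over the mean of the 4 other downstream populations for each tested member of 16 marker lists. Points are genes, filled red or blue where higher or lower at an adjusted p under 0.05, the black bar is the median of the list, and the number tested stands beside its name; the endothelial list has the largest median (4.86) and the joint list the lowest (-0.97). Fitted values of genes at or near 0 counts in a population depend on the prior count.

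Endothelial genes had the largest median rise of the lists. The filter on low counts could be passed through the 2 PCP libraries alone, and the result under a stricter filter is given below. Of the 12 endothelial genes listed, all were tested, 10 were higher and none was lower, with both PCP libraries above all 8 others for 9 of the 10, and with a median log2 fold change of 4.86 against 0.046 over all genes tested (4.80 with Tek set to the floor of 3 counts in 6C3). Pecam1, the endothelial adhesion molecule CD31 at chr11:106654217-106750628, was at 52.9 and 43.7 CPM in PCP and 0.855 to 3.08 in the 8 other libraries (log2 fold change 4.72 ± 0.29 SE, adjusted p = 5.97e-07). Kdr, the receptor of vascular endothelial growth factor, was at 15.3 and 16.6 CPM against 0.0576 to 1.37 (5.31 ± 0.37, adjusted p = 1.84e-06). For each of these genes the groups were far apart, and both PCP replicates were alike. Cldn5, a tight junction protein of vessels at chr16:18776847-18778262, was at 18.6 and 14.6 CPM against 0.173 to 0.777, and Tie1, an endothelial receptor kinase, at 34.6 and 20.7 against 0 to 0.773 (6.48 ± 0.32, adjusted p = 1.19e-07). The junctional cadherin Cdh5 was at 8.68 and 11.5 CPM against 0 to 0.978. Egfl7, which endothelial cells secrete, was at 36.9 and 20.5 CPM against 0.194 to 2.92, but its exons overlap those of Agpat2, and the strand used in counting is not given in the sources used here. Exons of Eng, Sox17, Runx2, Spp1, Pth1r, Aspn, Prg4, Ereg, Bmp4, Adgrg2 and Col4a2 also overlap those of another gene. Flt1 and Ramp2, which had the highest levels of the list outside PCP, did not pass (0.20 and 0.059, adjusted p = 0.631 and 0.926), and Flt1 was lower than in HEC. Tek is counted among the 10 through 6C3 and HEC, and its PCP and THY libraries overlapped.

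Endothelial genes were also compared with single neighbours. Of the 12, 8 were higher than in THY, 6 than in BLSP, 9 than in 6C3 and 10 than in HEC. The number of higher members was 10 without PCP replicate 1, without PCP replicate 2 and without each of the other populations in turn, and 7 with the 8 other libraries as 1 group. With genes kept only at 1 CPM or more in 4 libraries, 6 of the 12 were tested and 4 were higher. The summed level of the list was 300.3 and 261 CPM in PCP and 55.2 to 135 in the others. Against each of the 4 populations 44 genes were called higher (0.224% of genes tested; all 4 comparisons share the PCP libraries). Those named next were taken from the 44 or ranked by their rise, so their values are a description. Robo4, Gpihbp1 and Klhl4 had few or no counts outside PCP. Gpihbp1, which holds lipoprotein lipase on capillaries, had 1101 counts in PCP and 16 in the 8 other libraries together, a ratio of mean CPM of 227. Robo4, an endothelial receptor, was at 6.89 and 6.81 CPM in PCP and had 0 counts in THY, BLSP and 6C3 and 16 in HEC. With the floor of 3 counts over the 2 libraries of a population, Robo4 was at least 145-fold higher in PCP than in THY. Sox17, a transcription factor of arterial endothelium, was at 7.57 and 8.28 CPM in PCP and 0 to 0.522 in the others, and Klhl4 at 8.83 and 6.72 and 0 to 0.296. Angpt4, a ligand of Tie2, was at 43.5 and 13.1 CPM against 0.259 to 4.19 (4.11 ± 0.43, adjusted p = 4.45e-05).

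Genes of lymphatic vessels were listed after values had been seen and support nothing. The other lists, too, were chosen with earlier results of these data known. Of 8, 4 were higher, and their summed level was 400.8 and 391.7 CPM in PCP, below both THY libraries (421.6 and 411.3) and above the other 6. Mmrn1, a secreted protein of lymphatic endothelium and platelets at chr6:60924976-60989378, was at 36.2 and 23.6 CPM in PCP, 0.197 and 0.277 in THY and 0.489 and 0.181 in BLSP, with 0 counts in 6C3 and HEC. Its mean CPM was 209 times that of the 8 others. Lyve1, a hyaluronan receptor of lymphatic vessels and some macrophages, was at 36.2 and 20.8 CPM against 0.508 to 3.18 (4.22 ± 0.27, adjusted p = 8.83e-07). Prox1, the transcription factor that defines lymphatic identity, was at 5.04 and 7.25 CPM against 1.6 to 5.83 and did not pass (adjusted p = 0.0689).

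Markers of blood, muscle and skin cells, which a sort could carry, were examined beside these, where 4.88% of all genes were higher. Ptprc, the gene of CD45, was at 0.0872 and 0.681 CPM in PCP and 0.0648 to 0.864 in the others. Of 17 tested white blood cell genes, Fcer1g alone was higher (2.77 and 1.95 CPM against 0 to 1.11, adjusted p = 0.0266), and their summed level was 24.8 and 44.5 CPM in PCP and 5.41 to 40.7 in the others. Of 10 tested erythroid genes, 2 were higher (Car1 and Slc4a1), while the sum was 150.4 and 89.2 CPM in PCP and 19.6 to 154 in the others. Of 16 skeletal muscle genes, Cdh15 alone was higher (1.79 and 1.62 CPM against 0 to 1.37), and the sums were 57.2 and 68.8 and 31.1 to 55.6. None of 9 epidermal genes passed. The medians were 1.17 for white blood cells, 0.73 for erythroid genes and 0.87 for muscle, where both PCP sums lay above all others. The part of such cells in the results was not tested.

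**Figure D3:**
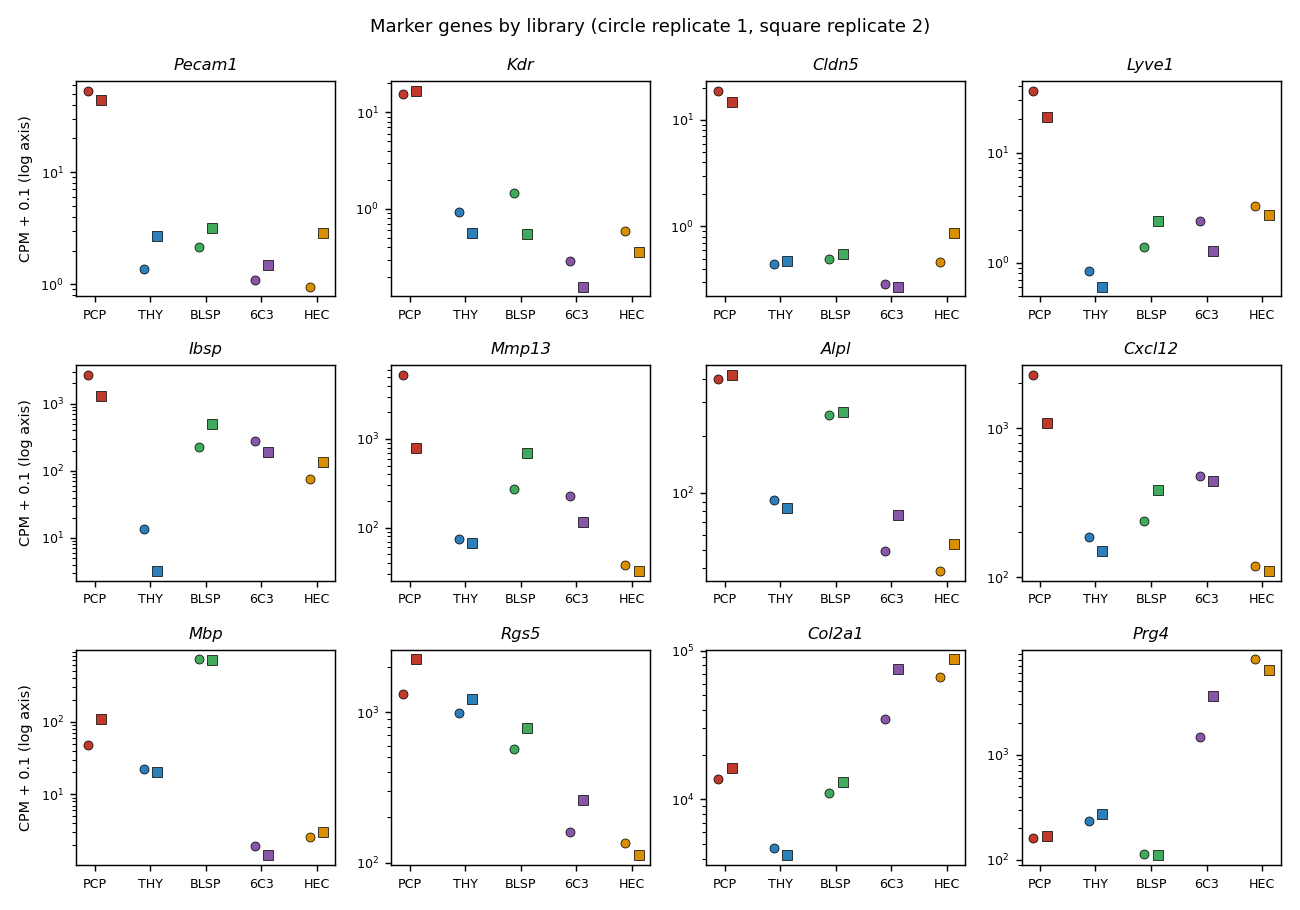
CPM of 12 marker genes in the 10 input libraries. The axis is logarithmic after adding 0.1, with a circle for replicate 1 and a square for replicate 2. In the upper row, Pecam1, Kdr and Cldn5 of the endothelial list and Lyve1 of the lymphatic list are separated from all 8 other libraries. Col2a1 and Prg4 are highest in 6C3 and HEC.

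Genes of the stroma that supports blood formation were higher as well. Of the 15 listed, 11 were higher, none was lower, and the median log2 fold change was 1.32. Cxcl12, the chemokine that retains blood stem cells in marrow (chr6:117168535-117181367), was at 2268 and 1079 CPM in PCP, 186 and 149.7 in THY, 237 and 387 in BLSP, 479 and 439 in 6C3 and 118 and 110.5 in HEC (2.87 ± 0.21, adjusted p = 2.57e-06). It was higher than in each of the 4 populations. Kitl, the ligand of Kit, was at 142 and 106 CPM against 13.7 to 54, Lepr, the leptin receptor of marrow stroma, at 47.5 and 22.7 against 4.37 to 12.6, and Adipoq, the hormone adiponectin, at 26.5 and 12.8 against 0.416 to 5.1. Hp, haptoglobin, was at 489 and 117 CPM against 4.83 to 68.9, with a wide gap between the 2 PCP replicates. Igf1 and Ebf1 did not pass (0.27 and 0.18). Without PCP replicate 1, 7 of the 15 were higher, without HEC 7, and with the 8 other libraries as 1 group 1. Among 7 tested fat cell genes, 4 were higher, among them Lpl, lipoprotein lipase, at 288 and 241 CPM against 18.7 to 134 and the fatty acid transporter Cd36 at 43.4 and 32.5 against 1.26 to 8.24, which is also made by capillary endothelium. Pparg, the master regulator of fat cells, did not pass (8.48 and 4.88 CPM against 2.17 to 4.72, adjusted p = 0.0538).

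Bone genes were higher in PCP than in THY, 6C3 and HEC. Of 18 osteoblast genes, 13 were higher and Dlx3 was lower, with a median of 2.14. Against single populations, 12 were higher than in THY, 12 than in 6C3, 13 than in HEC and 0 than in BLSP, although the median against BLSP was 1.04. Ibsp, bone sialoprotein (chr5:104299171-104311469), was at 2663 and 1278 CPM in PCP, 13.4 and 3.14 in THY, 222 and 498 in BLSP, 279 and 192 in 6C3 and 75 and 133 in HEC (4.42 ± 0.37, adjusted p = 6.52e-06). Alpl, the phosphatase of mineralizing cells, was at 399.8 and 417 CPM in PCP, 256 and 267 in BLSP and 38.8 to 91.6 in the other 6 libraries. PCP was the highest for both genes, BLSP came next for Alpl, and for Ibsp the libraries of BLSP and 6C3 overlapped. Among regulators, Runx2, which directs osteoblast and hypertrophic differentiation, was at 90.2 and 94.8 CPM in PCP against 12.8 to 74.2, and Sp7, which acts after it, at 43.6 and 86.5 against 5.54 to 39.6. Runx3, its relative, was at 23.2 and 26.1 CPM against 1.17 to 18 (2.55 ± 0.23, adjusted p = 1.47e-05). Bglap, Bglap2 and Bglap3, the osteocalcin genes, were all higher, but they are near-identical copies, and how reads were divided between them is uncertain. Col1a1 and Col1a2, the chains of type I collagen, did not pass (0.028 and -0.062).

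Markers of hypertrophic cartilage were higher for 5 of 10 genes, with a median of 1.31. Against single populations, 4 were higher than in THY, 1 than in BLSP, 5 than in 6C3 and 5 than in HEC. Mmp13, the collagenase of hypertrophic cells and osteoblasts (chr9:7272514-7283331), was at 5240.1 and 797 CPM in PCP, 273 and 686 in BLSP and 32.6 to 225 in THY, 6C3 and HEC (4.66 ± 0.42, adjusted p = 1.33e-05). PCP replicate 2 was close to BLSP replicate 2. Col10a1, the collagen that defines hypertrophic chondrocytes, was at 13.2 and 9.93 CPM against 0.0648 to 1.54, and Panx3 at 58.6 and 28.2 against 1.06 to 15.6. Pth1r, the receptor of parathyroid hormone, was higher than in each of the 4 populations (60.1 and 56.1 CPM against 13.8 to 31.5). Ihh, Phospho1, Vegfa, Ppa1 and Slc38a2 did not pass. Mmp9, the gelatinase of osteoclasts and vessel-associated cells, was at 251 and 111 CPM against 0.601 to 31.4, whereas the osteoclast genes Ctsk and Acp5 did not pass (0.62 and -0.12).

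Because Runx2 and Runx3 rose with these genes, the RefSeq promoter windows of GRCm38.p6 (250 bases before to 50 after the start) were searched for the Runt motif AACCACA or its reverse complement TGTGGTT. It was in 1731 of 32851 windows of all genes (5.27%), in 3 of 16 windows of the 11 osteoblast genes matched and in 2 of 12 windows of the 9 hypertrophic genes matched. Runx2 is in both lists. A match in each gene that was higher in PCP is shown (the first of 3 for Runx2), 5′ to 3′ on the strand of the gene, with the motif in capitals. They start at positions -129, -165, -119 and -81 from the start of Spp1 (chr5:104434971-104435000, plus strand), Dmp1 (chr5:104202441-104202470, plus strand), Mmp13 (chr9:7272384-7272413, plus strand) and Runx2 (chr17:44814690-44814719, minus strand).
Spp1: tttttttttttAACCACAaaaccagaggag
Dmp1: agtcatttgagAACCACAagagctttttag
Mmp13: attctgccacaAACCACActtaggaagaaa
Runx2: gtgaggtcacaAACCACAtgattctgtctc
Spp1, osteopontin, was at 5978 and 1949.9 CPM in PCP against 282 to 1247, and Dmp1, a matrix protein of osteocytes, at 70.5 and 56 against 3.07 to 43.2. For the endothelial list, the core motif of ETS factors AGGAAG or CTTCCT was in 5 of 10 windows of 8 matched genes and in 35.4% of all windows. A match is a description of the sequence only.

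Genes of Schwann cells were higher in PCP than in THY but not than in BLSP. Mbp, myelin basic protein, was at 47.2 and 109.7 CPM in PCP, 722 and 702 in BLSP, 21.9 and 20.1 in THY, 1.81 and 1.35 in 6C3 and 2.44 and 2.88 in HEC. The PCP libraries lay above all of THY, 6C3 and HEC and below both of BLSP, and replicate 2 was higher than replicate 1. Sox10, the transcription factor that defines Schwann cells, was at 5.23 and 12.8 CPM in PCP, 29.8 and 26 in BLSP and 0.191 to 2.59 in the other 6 libraries. Of 11 listed genes, 6 were higher than the mean of the 4 populations on the log scale (3 without PCP replicate 2) and S100b and Pmp22 were lower. Against BLSP alone, 0 were higher and 4 were lower, among them Mbp with a log2 difference of -3.18 and Pmp22, a peripheral myelin protein, with one of -1.11. With the 8 other libraries as 1 group, 0 of the 11 passed, and the sign turned for Mbp (-1.23). Gfra3, a receptor of nerve support cells, was at 20.9 and 35.2 CPM in PCP, 15.6 and 12.2 in BLSP and at most 0.0814 in the other 6 libraries.

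Several mural and fibroblast genes were higher in PCP than in 6C3 and HEC, and none was higher than in THY. Of 11 pericyte and smooth muscle genes, 6 were higher than the mean and 6 were higher than in 6C3, but 0 passed against THY. Rgs5, a pericyte marker, was at 1311 and 2239.9 CPM in PCP, 990.0 and 1227 in THY, 569 and 780.3 in BLSP and 112 to 259 in 6C3 and HEC. The levels fell in that order, and the difference between PCP and THY did not pass (adjusted p = 0.321). Abcc9, a potassium channel subunit of pericytes, was at 32.8 and 39.9 CPM against 1.34 to 29.7, while Acta2, smooth muscle actin, and Cspg4 did not pass (-0.025 and -0.50), and Cspg4 was at 338 and 499 CPM in 6C3 and 676 and 536 in HEC against 208 and 295 in PCP. Of 23 fibroblast and perichondrium genes, 8 were higher than the mean, 10 than in 6C3 and 13 than in HEC, but 0 were higher than in THY and 5 were lower. Without HEC, 2 were higher than the mean. Aspn, asporin, was at 2524 and 2374 CPM in PCP, 3532 and 3034 in THY, 2159 and 2344 in BLSP and 196 to 391 in 6C3 and HEC. Postn was at 2119 and 2012 CPM in PCP and 223 to 418 in 6C3 and HEC.

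Genes of cartilage matrix were not higher in PCP than the mean of the others. Of 22 cartilage matrix genes, 0 were higher, 5 were lower (Cytl1, Col9a1, Matn4, Hapln1 and Prelp) and 17 did not pass, with a median of -0.47. Col2a1, type II collagen (chr15:97975602-98004695), was at 13707 and 16359 CPM in PCP, 4725 and 4232 in THY, 10980.0 and 13076 in BLSP, 34946 and 75574 in 6C3 and 66683 and 87224 in HEC. PCP thus lay above THY (log2 difference 1.75, adjusted p = 0.00635), between the BLSP and 6C3 levels but without a call against BLSP (0.32, adjusted p = 0.9998), and below 6C3 (-1.88, adjusted p = 0.00144) and HEC (-2.36, adjusted p = 0.000188). Over the list, 9 genes were higher and 2 lower than in THY, 0 passed against BLSP, and 12 were lower than in 6C3, and 14 were lower and 2 higher than in HEC. Without HEC, and likewise with the 8 other libraries as 1 group, 0 of the 22 were lower than the mean. Sox9, the master regulator of cartilage, was at 1522 and 2213 CPM in PCP and 1557 to 6437 in the others (-0.78 ± 0.19, adjusted p = 0.0256), and Sox5, which acts with it, at 36.7 and 48 against 43.2 to 182. Of 14 chondrogenic transcription factors, Runx3 and Mef2c were higher, both regulators of hypertrophy, and Pitx1, Sox5, Sox9 and Zbtb20 were lower (1 and 0 without HEC).

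Genes of the joint were lower in PCP than the mean of the others for 6 of 8 members, with a median of -0.97. Without HEC 2 were lower. Against single populations, 7 were lower than in 6C3 and 6 than in HEC, where 1 was higher. Against THY 1 was lower, and against BLSP 0 were lower and 1 was higher, with a median of 0.13. Prg4, the lubricin of the articular surface, was at 162 and 169.7 CPM in PCP, 113 and 111 in BLSP, 232 and 272 in THY, 1456 and 3610.4 in 6C3 and 8030.1 and 6429 in HEC. The difference lay between the Thy1+ and the 6C3+ populations, with log2 differences of PCP from 6C3 of -3.93 and from HEC of -5.45 and no call against THY (adjusted p = 0.441) or BLSP (adjusted p = 0.879). Gdf5, a growth factor of joint precursors, was at 4.62 and 6.92 CPM against 4.71 to 57.1. Few genes were lower than in every neighbour. Ereg, epiregulin, a ligand of the EGF receptor, was the single gene lower than in each of the 4 populations (0.0051% of genes tested), at 0.262 and 0.132 CPM in PCP and 1.4 to 4.19 in the others (-3.62 ± 0.49, adjusted p = 0.000396). Other genes whose PCP libraries lay below all 8 others were Adgrg2, an adhesion receptor (21.2 and 24.4 CPM against 31.1 to 94.3), Sema3e, a guidance ligand that repels vessels (25.3 and 30.9 against 32.5 to 138), and Bmp4 (35.7 and 27.1 against 40.1 to 120.4). Among such genes with a mean of at least 5 CPM, the largest fall under the rule for named genes was that of Sptb, a spectrin of the membrane skeleton (2.42 and 1.69 CPM against 2.92 to 18.7, -1.95 ± 0.32, adjusted p = 0.00169). Trpm6, a magnesium channel, was at 2.84 and 3.25 CPM against 3.91 to 24.9, and Msx2, a homeobox factor of limb and skull, at 4.47 and 3.97 against 4.86 to 21.

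**Figure D4:**
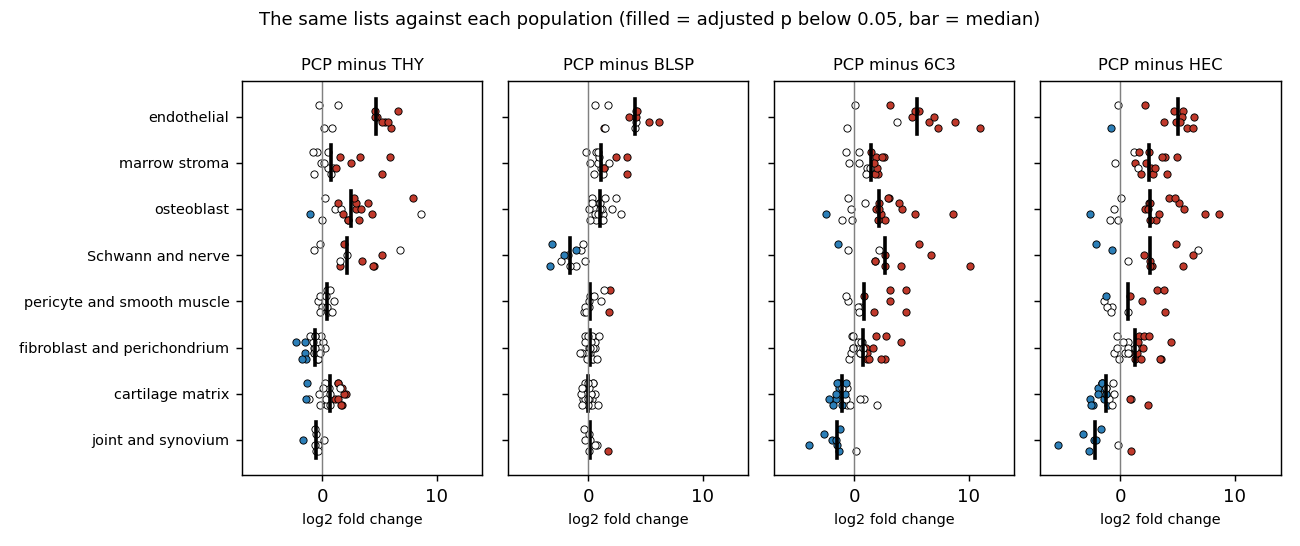
Fitted log2 fold change of PCP over each of the 4 other downstream populations for members of 8 marker lists. Points are genes, filled where the adjusted p is under 0.05 (red higher, blue lower), and the bar is the median of the list; most endothelial genes lie above 0 against all 4, bone genes are called against all but BLSP, and Schwann cell genes are lower against BLSP.

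The signalling lists are set beside all genes tested, of which 4.88% were higher and 1.59% lower. Among them, the Notch list held 7 higher and 0 lower of 19 tested. Dll4, the Notch ligand of arterial and tip endothelium, was at 3.36 and 3.97 CPM against 0 to 0.57, and the receptor Notch3, which is typical of mural cells, at 24.6 and 35.7 against 2.61 to 22.1. The Notch target Hey1 was at 11.4 and 9.35 CPM against 1.59 to 6.71, while Notch2 did not pass (-0.28). Of 47 Wnt genes, 11 were higher and 3 lower (6 and 0 without HEC). The ligand Wnt5a was at 65.3 and 56.5 CPM in PCP, 36.6 and 37.1 in THY, 60.6 and 64.1 in BLSP and 5.67 to 8.38 in 6C3 and HEC, and the secreted inhibitor Sfrp4 at 246 and 114 against 5.17 to 114. The inhibitor Wif1 was lower (1003 and 839 CPM against 627 to 3814), through 6C3 and HEC. Of 32 BMP genes, 8 were higher and 4 lower (3 and 1 without HEC, 2 and 2 without PCP replicate 1). The ligands Bmp4, Bmp7, Gdf5 and Gdf6 were the 4 that were lower, while the antagonists Nog (27.9 and 14.1 CPM against 6.31 to 18.3), Fst and Chrdl1 were higher, with Bmp8a, Bmp1, Smad1, Id3 and Id4. Of 18 FGF genes, 3 were higher (Fgf7, Spry1 and Spry4) and Fgfrl1 was lower. Of 16 Hedgehog genes, 1 was higher, near the share of all genes, and Cdon and Hhip were lower. Of 18 TGF-beta genes, Inhbb, Eng and Ltbp4 were higher, but Eng encodes the sort antigen CD105, which BLSP and HEC were sorted to lack. Of 36 Hox genes, 7 were higher and Hoxa10 and Hoxa11 were lower, and 0 passed against THY or BLSP.

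The remaining lists are set beside the 4.88% of all genes that were higher and the 1.59% that were lower. None of 18 S phase genes passed, and 2 of 24 mitosis genes were higher (Aurka and Birc5), although 18 were higher than in HEC alone. Among 81 ribosomal protein genes Rpl39l alone was higher, and none of 17 mitochondrial genes passed. Of 20 immediate early and dissociation genes, Fosl2 alone was higher, and of 23 genes of glycolysis and hypoxia, P4ha1 and Pfkp were lower. Of 10 tendon genes Mkx and Kera were lower, of 15 genes of proteoglycan synthesis Chst3 and Papss2, and of 11 genes of the resting zone Sfrp1 and Apoe were higher and Pthlh, Clu and Wif1 lower. Of 44 collagen genes, 9 were higher, among them Col4a2 and Col18a1 of basement membranes (343 and 396 CPM against 55.4 to 264), and Col9a1 was lower.

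To place PCP in the whole hierarchy, the 6 input libraries of SSC (skeletal stem cells), pBCSP and BCSP (progenitors of bone, cartilage and stroma) were fitted with the 10 above, with CPM scaled over these 16 libraries. In PCP 4931 genes were higher than the mean of the 3 (24.6%) and 2855 were lower (14.2%) of 20060 tested. All 12 endothelial genes were higher (median 4.16), with Pecam1 at 51.8 and 43.7 CPM in PCP and 0.558 to 15.1 upstream (adjusted p = 3.21e-05). That list was not alone in this. Higher too were 9 of 10 erythroid genes (median 6.15), 10 of 11 mural genes (4.21) and 23 of 24 mitosis genes (1.84). The summed erythroid level was 147 and 89.1 CPM in PCP, 18.8 to 149 in THY, BLSP, 6C3 and HEC and 2.2 to 6.42 upstream. For mitosis genes the sums were 679 and 895 CPM in PCP, 380 to 855 in those 4 populations and 193 to 350 upstream. Of 81 ribosomal protein genes, 70 were lower than upstream. The source of these differences was not tested. Cxcl12 was at 2217 and 1079 CPM in PCP and 18.2 to 107 upstream, and Rgs5 at 1281 and 2239.6 and 1.27 to 56. Of the 22 cartilage matrix genes, 20 were lower than upstream and 1 was higher, with Col2a1 at 13401 and 16357 CPM in PCP and 70623 to 84919 upstream. The sums of this list were 23444 and 27122 CPM in PCP, 12137 to 115699 in THY, BLSP, 6C3 and HEC and 135408 to 169596 upstream. Sox9 was at 1488 and 2213 CPM and 4636 to 6657. Of the 10 hypertrophic genes, 3 were higher and 5 were lower than upstream, with a median of -1.29. Bone genes were higher for 13 of 18 and lower for 1, but not all of them against each upstream population. Alpl at 391 and 417 CPM did not pass against SSC alone (444 and 313 CPM, adjusted p = 0.832) or BCSP alone (adjusted p = 0.383). Ibsp (adjusted p = 0.407 and 0.709) and Spp1 (0.57 and 0.85) did not pass against SSC and BCSP either. Alpl, Ibsp and Spp1 were higher than in pBCSP, and Col1a1 and Col1a2 were higher than in SSC, pBCSP and BCSP. Cd200 was lower than in SSC and BCSP and higher than in pBCSP.

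**Figure D5:**
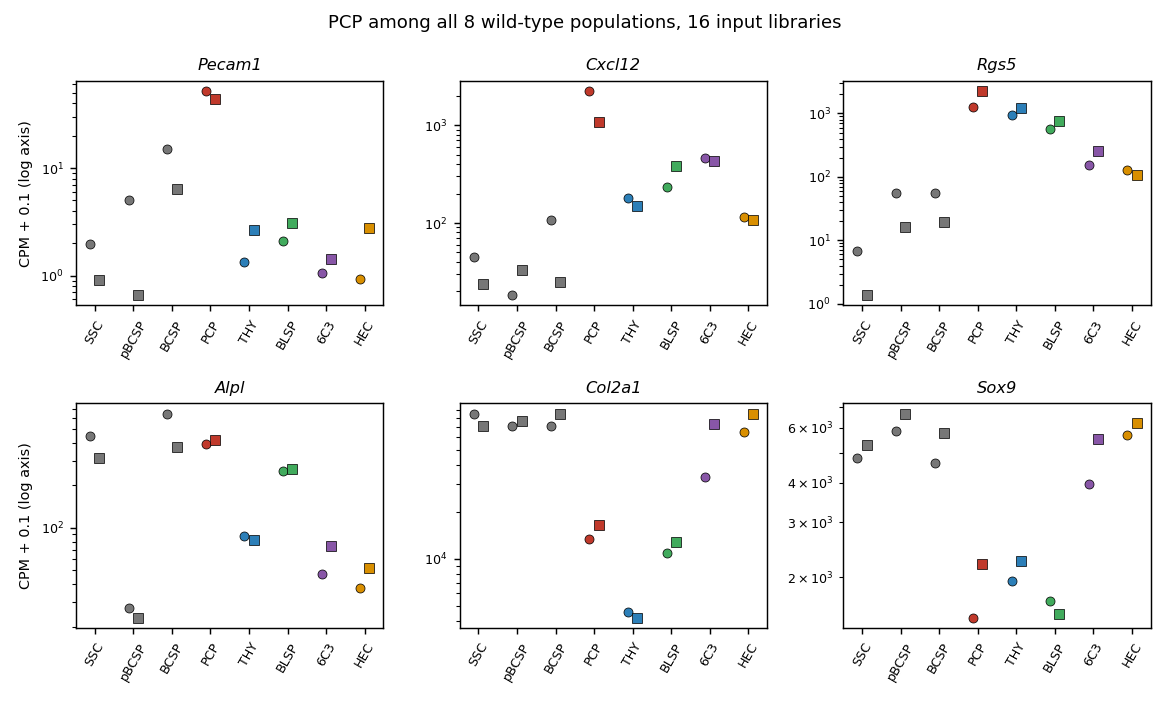
CPM of 6 genes in the 16 input libraries of the 8 populations, on a logarithmic axis after adding 0.1, with a circle for replicate 1 and a square for replicate 2. The upstream populations are grey; Pecam1, Cxcl12 and Rgs5 are higher in PCP than in all upstream libraries, and Col2a1 and Sox9 are lower.

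The IP libraries of the same populations were made from m6A-enriched RNA of cells sorted in the same batches. They gave a second count of these genes that is not independent of the input in its cells. It holds mRNA level and m6A together, so it is not a second measure of mRNA alone. There 335 genes were higher in PCP (1.5% of 22285) and 161 were lower (0.722%). Of the 956 genes higher in input, 942 were tested in IP and 289 were called higher there (30.7% of those 942 and 86.3% of the IP list), and of the 311 lower, all tested in IP, 102 were called lower (32.8% and 63.4%). None was called in the opposite direction. Pecam1 was at 39.4 and 21.8 CPM in the PCP IP libraries and 0.513 to 3.37 in the others (3.98 ± 0.46, adjusted p = 9.07e-05), Cxcl12 at 1076 and 620.3 and 56.5 to 273, and Ibsp at 1788 and 892 and 0.935 to 317. Other genes named above were not called in IP, among them Kdr (adjusted p = 0.121), Robo4 (0.29), Sox17 (0.182), Ereg (0.638) and Sptb (0.928). In IP, 7 of 12 endothelial, 9 of 15 marrow stroma and 10 of 17 osteoblast genes were higher, and 1 osteoblast gene was lower. Of 22 cartilage matrix genes, 6 were lower and 1 was higher, and 5 of 8 joint genes were lower. The unequal PCP replicates were seen in IP too, with Mmp13 at 2525 and 446 CPM.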

How the data were processed

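Input libraries were RNA before m6A enrichment, and IP libraries were the enriched RNA, both made by a Smart-seq2-based protocol with paired-end reads. The authors trimmed reads with fastp 0.20.1, aligned them with HISAT2 2.2.1 and counted them per gene with featureCounts 2.0.1, and the deposited values are raw counts of 46959 rows in 44 libraries. The 128 rows named 1-Mar or 2-Mar were left out. The tables of the authors' own comparisons, which hold fold changes and p-values, were not used. Libraries were grouped by their labels. By the study's methods, femur samples at postnatal day 3 came from several independent litters, but which litters went into which library is not stated.

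Counts were tested with edgeR 4.0.16 in R 4.3.3 (TMM scaling, filterByExpr with a minimum count of 10, the quasi-likelihood test, Benjamini-Hochberg adjustment at 0.05), as PCP minus the mean of the 4 other downstream populations and minus each one. Of 46831 genes, 19604 were tested. All 5 populations shared 1 estimate of the spread. DESeq2 1.42.0, other scalings and filters, libraries or populations left out and a replicate block were alternatives. The members and gene lists were chosen with earlier results of these data known. Named genes were the sort antigens, the 12 genes of largest rise and of largest fall among those called, alike in sign against every population, separated from all 8 libraries and at a mean of at least 5 CPM, at most 10 genes a direction called against each population, and in each list up to 4 called and 2 other members of highest level. Others, such as Cdh5, Kitl, Prox1, Dmp1, Dll4, Nog and the further called members of lists, were named after their values were seen, and exon overlaps were looked up for genes under the rule alone. On simulated counts, 49% of 100 genes changed by 1 on the log2 scale and 91% of those changed by 2 were recovered. Depth was 19795666 to 44046651 counts a library, and counting intervals were not used. Promoters were RefSeq windows of GRCm38.p6, and gene positions are those of GENCODE vM21 on GRCm38. Some genes are not reported here.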

Additional observations from a re-analysis of the deposited data

How the results depend on the processing

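The number of genes higher in PCP than the mean of the other populations (956) became 36 with the 8 other libraries as 1 group, 437 without HEC and 2127 at a log2 fold change over 0.5 with an unadjusted p under 0.05. The number lower (311) became 1, 64 and 958 under the same settings, and 558 with DESeq2, 535 with no filter on low counts and 506 without BLSP. With 1 library left out at a time, 552 to 1348 genes were higher and 122 to 593 lower. The calls in either direction then ran from 169 to 908 for THY (517), from 27 to 228 for BLSP (111), from 1182 to 2543 for 6C3 (1817) and from 1316 to 2679 for HEC (2457). DESeq2 gave 989 calls for THY, 314 for BLSP and 942 for IP (496). Of all calls against the mean, 75.5% were higher, which became 82.9% with scaling by library size alone, 97.3% with the others as 1 group, 60.9% without PCP replicate 2 and 87.2% without HEC. With the others as 1 group, the fold change of Mbp (-1.23) turned negative. Of 114 called genes that the text could name, 16 kept their call in every alternative that gave them a value, and 60 in every such one but the fit with the others as 1 group. For 10 of the 16, among them Kdr, Cldn5 and Mmrn1, the filter of 1 CPM in 4 libraries gave no value.

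No strong shift was shared by libraries of the same replicate number, as the differences between replicates correlated at -0.201 to 0.109 between populations. Such values cannot tell whether libraries of the same number came from the same animals or sort. A replicate block gave 867 higher and 274 lower genes. For genes at 0 counts in a population, such as Mmrn1 in 6C3 and HEC, only a lower bound of the ratio can be had. The causes of these shifts were not tested.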

Other observations

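The 33 genes lower in PCP than in BLSP included Mag, Mbp and Prx, which belong to myelin and were named after their values were seen.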
